A study of Rattus norvegicus with 6 samples.

Results

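The genes of glucose uptake, glycolysis and glycogen metabolism were read in 6 RNA-sequencing libraries of primary ventricular cardiomyocytes isolated from Sprague-Dawley rat pups of postnatal day 1 to 3. The genes were taken from a list of 34 symbols, of which 33 matched a gene name among the 32623 genes of the deposited table. No gene of the table is named Gapdh, and the rows described as that enzyme are given separately. The 3 siMettl3 libraries came from cells that received a small interfering RNA (siRNA) against Mettl3 for 24 h and then the bacterial endotoxin lipopolysaccharide (LPS) for 6 h. The 3 siNC libraries came from cells with a negative-control siRNA and the same LPS treatment. All cells were from 1 isolate pooled from several rats, so p-values reflect only the variation among the libraries, part of which may be technical. Every library had LPS, so no value here is a response to LPS.

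Glucose enters a heart cell through facilitative transporters, is phosphorylated by hexokinase and is split by glycolysis into pyruvate, which is either reduced to lactate or oxidised by the pyruvate dehydrogenase complex in mitochondria. Part of the glucose phosphate is stored as glycogen. Most of these steps have several isoforms, some made mainly by striated muscle and others by most cells, and the heart exchanges fetal for adult isoforms around birth. Mettl3 is the enzyme that methylates adenosines within messenger RNA.

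The total count per library was 71202469 to 76668751, and the lowest count of any of the 33 genes in any library was 127, for Pfkfb1. Mettl3 itself was at 10.3, 10.6 and 9.90 FPKM (sequenced fragments relative to the transcript's length and the library's depth) in siMettl3 and 18.2, 17.2 and 15.3 FPKM in siNC, or 60.6% of the siNC mean, with a limma adjusted p of 0.00661. The cells expressed the cardiomyocyte markers: the 8 found in the table summed to 7885 to 8580 FPKM in siMettl3 and 7577 to 7901 FPKM in siNC, and 0 of them changed by limma or by edgeR (at an unadjusted p under 0.05, 0 by limma and 1 by edgeR). Marker sums of the other cell types did not overlap between the groups, except those of epicardial cells. Fibroblast markers summed to 927 to 988 FPKM in siMettl3 and 1513 to 1582 FPKM in siNC (6 of 10 fell). Smooth muscle and pericyte markers summed to 2506 to 2714 FPKM in siMettl3 and 3727 to 4226 FPKM in siNC (4 of 7 fell). Macrophage markers summed to 37.1 to 48.7 FPKM in siMettl3 and 72.1 to 89.5 FPKM in siNC (5 of the 6 tested fell, and C1qc, Ptprc and Mrc1 were below 1 FPKM). Of the endothelial, epicardial and erythroid markers tested, 2 of 4 rose and 1 fell, 1 of 2 fell, and 1 of 3 rose. Their sums were 17.2 to 18.2, 9.65 to 13.3 and 145 to 213 FPKM in siMettl3 and 14.96 to 17.0, 9.78 to 10.4 and 89.9 to 131 FPKM in siNC, and Vwf, Tie1, Wt1 and Upk3b were below 1 FPKM. No marker of these lists had a count of 0 in all libraries. The part of these cells in the differences below was not tested, and in bulk RNA fewer cells of a type and less RNA per cell cannot be told apart.

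Of the 33 genes, 4 rose and 3 fell in siMettl3 cells. The rises were Aldoc, Slc2a1, Pdk2 and Gbe1, and the falls were Slc2a4, Pgam2 and Pdha1. A rise or fall is a Benjamini-Hochberg adjusted p under 0.05 in limma over the 13105 genes averaging 1 FPKM or more, which all 33 did. The share was 21.2%, against 10.9% of all tested genes (6.53% higher and 4.4% lower). The median log2 fold change was 0.041 over the 33 genes and 0.067 over all tested genes, and the summed FPKM was 5002 to 5266 in siMettl3 and 4955 to 5327 in siNC. Libraries of the groups did not overlap for 18 of the 33 (54.5%), against 37.9% of tested genes. The edgeR test on the deposited counts also called 7 of the 33, with 2 higher and 5 lower, against 9.98% of all tested genes (3.39% higher and 6.59% lower). It shared 5 with limma, left out Pdk2 (adjusted p = 0.0524) and Gbe1 (0.0681), and added falls of Pfkl and Slc16a1. DESeq2 on the same counts called 11, with 4 higher and 7 lower, against 18.3% of all tested genes (7.71% higher and 10.6% lower). Without siMettl3 replicate 1 or siNC replicate 2 the limma count was 2 (Aldoc and Slc2a1). It was 4 without siMettl3 replicate 2, siMettl3 replicate 3 or siNC replicate 1, and 6 without siNC replicate 3. Over all tested genes the limma calls fell from 1432 to 206, 402, 451, 550, 224 and 861 in these fits, in the order named.

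**Figure D1:**
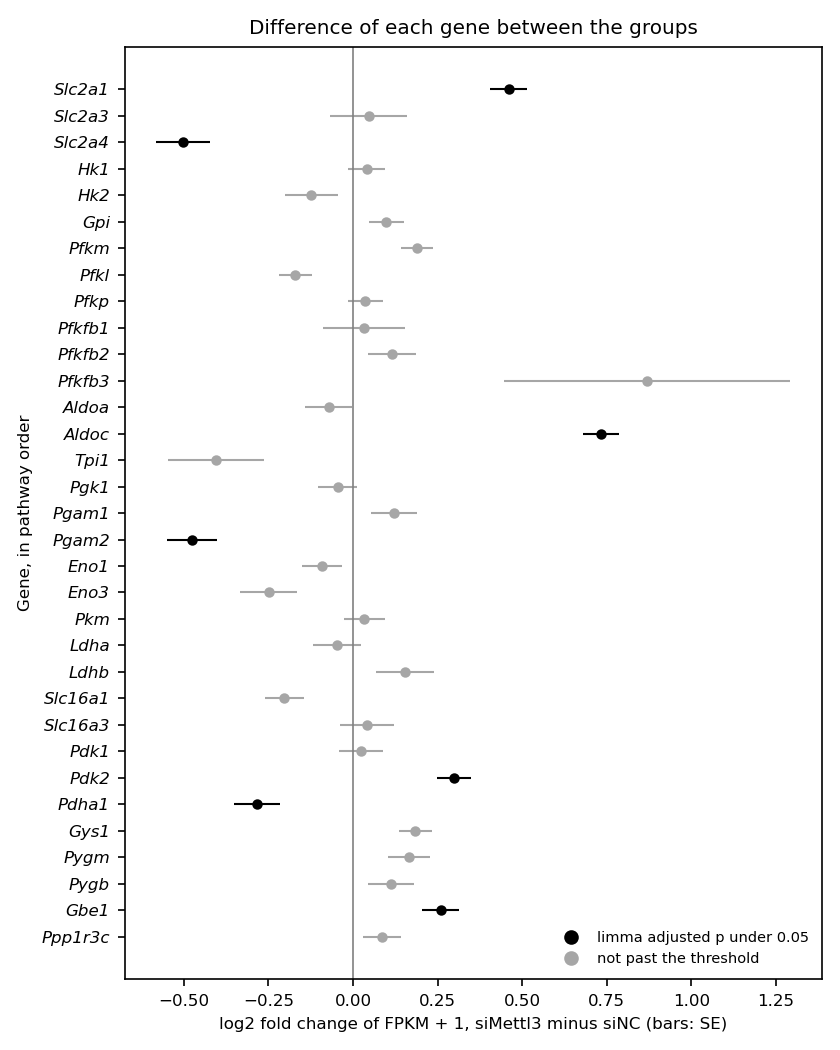
Log2 fold change of FPKM + 1 (siMettl3 minus siNC) for the 33 genes in pathway order, with limma standard errors; black points are the 7 genes past an adjusted p of 0.05. Slc2a1 and Slc2a4 lie on opposite sides of 0, and Pfkfb3 has the widest error.

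The sequences just upstream of the genes with the strongest calls among those in the promoter table are shown because these genes moved in opposite directions: Aldoc and Slc2a1 rose and Pgam2 fell. They are from RefSeq, build GRCr8, as 250 bases before the annotated start, read 5' to 3' on the gene's strand. Capitals mark ACGTG and GCGTG on either strand, the core letters of the hypoxia-response element through which hypoxia-inducible factors are known to act on many glycolytic genes.
Aldoc, chr10:63715294-63715543, plus strand: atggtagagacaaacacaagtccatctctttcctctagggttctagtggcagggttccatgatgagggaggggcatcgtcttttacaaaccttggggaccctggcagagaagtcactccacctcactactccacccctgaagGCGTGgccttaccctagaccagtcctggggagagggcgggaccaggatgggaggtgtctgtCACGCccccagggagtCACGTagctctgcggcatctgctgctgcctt
Slc2a1, chr5:138002272-138002521, plus strand: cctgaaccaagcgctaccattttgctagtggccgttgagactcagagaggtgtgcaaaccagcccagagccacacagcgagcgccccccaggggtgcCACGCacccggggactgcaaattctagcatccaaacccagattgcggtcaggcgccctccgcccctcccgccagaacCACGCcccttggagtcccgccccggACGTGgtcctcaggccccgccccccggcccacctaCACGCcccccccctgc
Pgam2, chr14:84897875-84898124, minus strand: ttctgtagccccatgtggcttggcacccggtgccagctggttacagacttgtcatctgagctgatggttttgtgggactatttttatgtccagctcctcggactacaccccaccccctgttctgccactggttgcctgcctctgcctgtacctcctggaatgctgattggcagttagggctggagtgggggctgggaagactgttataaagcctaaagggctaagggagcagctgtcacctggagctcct
The Aldoc stretch held 1 ACGTG and 2 GCGTG, the Slc2a1 stretch 1 and 3, and the Pgam2 stretch neither. Over windows of 300 bases (250 before the start and 50 after), 30 of the 33 genes had at least 1 window, and 17 of their 34 windows (50%) held ACGTG, against 19.3% of all 33469 windows of that length in the table. GCGTG was in 44.1% of the windows of these genes and 29.7% of all windows. CACGTG, which contains ACGTG and spells the core of the E-box, was in 14.7% of the windows of these genes and 6.42% of all windows. All windows were counted whether or not their gene was expressed here, whereas the 33 genes all averaged 1 FPKM or more. The compared sets are therefore unlike. Of the 30 genes with a window 17 held ACGTG, and 6 of the 30 were called. ACGTG stood in the windows of all 4 genes that rose and of 0 of the 2 falling genes with a window (Pgam2 and Pdha1). It also stood in those of 13 genes that did not pass. With so few called genes these counts cannot relate the letters to direction, which was not tested. GCGTG stood in the windows of 2 of the genes that rose, 1 that fell (Pdha1) and 11 that did not pass, and CACGTG in those of 1 that rose, 0 that fell and 4 that did not pass. These matches are descriptions of letters and not of binding.

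Among the glucose transporters, the ubiquitous Slc2a1 rose and the insulin-responsive transporter of muscle and fat, Slc2a4, fell. Slc2a1 (ENSRNOG00000007284), which the table places on the plus strand of chromosome 5 from 138154673 to 138182897 without naming a build, had 50.3, 47.6 and 48.8 FPKM in siMettl3 and 35.0, 37.2 and 33.7 FPKM in siNC. Every siMettl3 library was above every siNC library, with a log2 fold change of 0.46 (SE 0.0550, limma adjusted p = 0.00722), and the call held with any 1 library left out. Slc2a4 (ENSRNOG00000017226, minus strand of chromosome 10, 56552983 to 56558487) had 9.85, 9.92 and 8.81 FPKM in siMettl3 and 12.8, 13.8 and 15.1 FPKM in siNC. Here every siMettl3 library was lower, with a log2 fold change of -0.50 (SE 0.0787, limma adjusted p = 0.0163). This call was lost without siMettl3 replicate 1 (adjusted p = 0.0631) and without siNC replicate 2 (0.0523). Slc2a3, the high-affinity transporter best known from neurons, did not pass at 5.37 ± 0.930 FPKM in siMettl3 and 5.12 ± 0.119 FPKM in siNC (SD, n = 3 each). Of the summed FPKM of these transporters, Slc2a4 held 14.9 ± 0.876% in siMettl3 and 25.6 ± 2.07% in siNC, and Slc2a1 held 76.7 ± 1.67% in siMettl3 and 65.0 ± 2.10% in siNC.

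**Figure D2:**
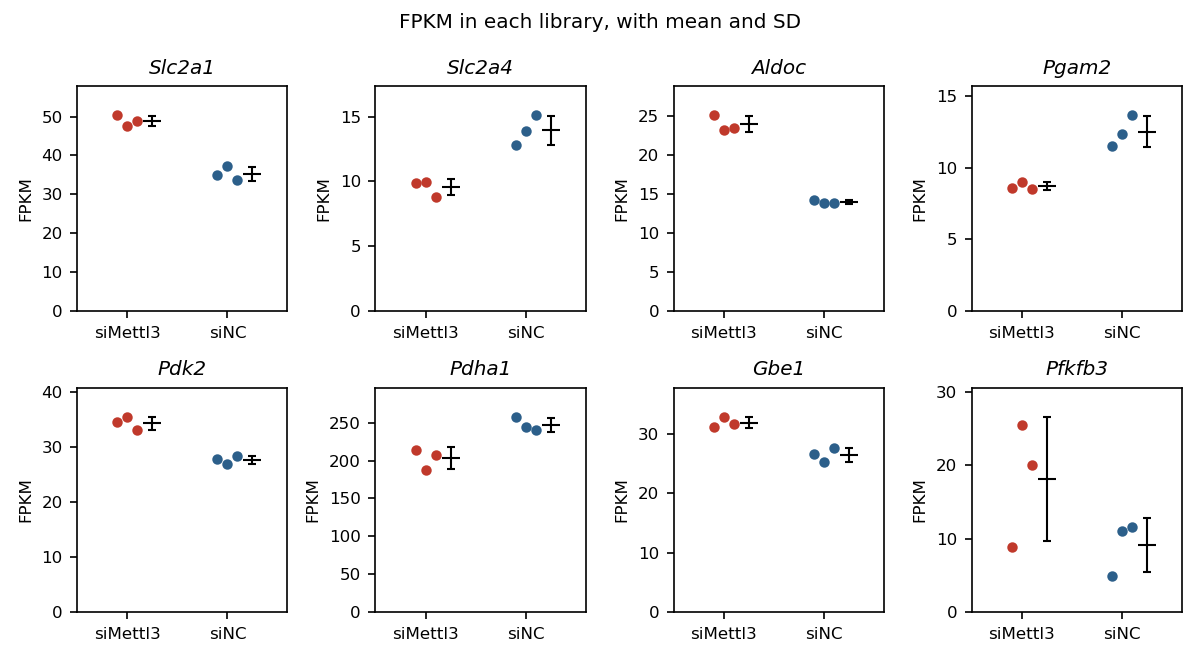
FPKM in each library (points) with the mean and SD of 3 libraries (bars) for the 7 genes past the threshold and for Pfkfb3. The groups do not overlap for any of the 7, while the siMettl3 library of Pfkfb3 at 8.89 FPKM lies within the siNC range.

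None of the 9 genes of the hexose phosphate steps passed the limma threshold (2 had an unadjusted p under 0.05), and edgeR called 1 of them, Pfkl. Hexokinase traps glucose in the cell, and its main form here was Hk1, at 127 ± 6.29 FPKM in siMettl3 and 123 ± 2.37 FPKM in siNC (SD, n = 3 each). Hk2, the form typical of insulin-sensitive muscle, was at 17.1 ± 0.934 FPKM in siMettl3 and 18.8 ± 1.67 FPKM in siNC (limma adjusted p = 0.321). Gpi, the isomerase that follows, was at 256 ± 1.48 FPKM in siMettl3 and 239 ± 7.99 FPKM in siNC, without overlap of the groups but with a limma adjusted p of 0.232. Phosphofructokinase, which commits the sugar to glycolysis, has a muscle (Pfkm), a liver (Pfkl) and a platelet (Pfkp) subunit. Pfkm was just outside the threshold by limma (adjusted p = 0.0508) and further from it by edgeR (adjusted p = 0.171). It had 77.7, 76.0 and 73.9 FPKM in siMettl3 and 68.5, 65.3 and 65.5 FPKM in siNC. Pfkl had 47.3, 45.7 and 44.1 FPKM in siMettl3 and 53.0, 51.0 and 50.6 FPKM in siNC, with limma adjusted p = 0.0698 and edgeR adjusted p = 0.0272. After median-ratio scaling its limma adjusted p was 0.0309. The groups thus did not overlap for either subunit, and the differences pointed in opposite directions. Pfkp, the most abundant of the subunits, had 179, 178 and 183 FPKM in siMettl3 and 182, 177 and 167 FPKM in siNC, overlapping. It held 59.7 ± 0.993% of their summed FPKM in siMettl3 and 59.8 ± 0.670% in siNC.

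The bifunctional enzymes of the Pfkfb family make and break the activator of phosphofructokinase. Pfkfb3, the inducible form, had a large but uncertain difference, with the widest error of the 33 genes. Its levels were 8.89, 25.5 and 19.95 FPKM in siMettl3 and 4.97, 11.0 and 11.6 FPKM in siNC. The groups overlapped, and the log2 fold change of 0.87 had a 95% interval of -0.14 to 1.87 (limma adjusted p = 0.209). In both groups replicate 1 was the lowest. Leaving out siNC replicate 1 gave a log2 fold change of 0.52, leaving out siMettl3 replicate 2 gave 0.58 and leaving out siMettl3 replicate 1 gave 1.29, and it passed in none of the 6 fits with a library left out. Pfkfb2, the heart form, was at 2.91 ± 0.0451 FPKM in siMettl3 and 2.62 ± 0.0553 FPKM in siNC without overlap (limma adjusted p = 0.309), and Pfkfb1, the liver and muscle form, was at 1.09 ± 0.233 FPKM in siMettl3 and 1.04 ± 0.154 FPKM in siNC.

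**Figure D3:**
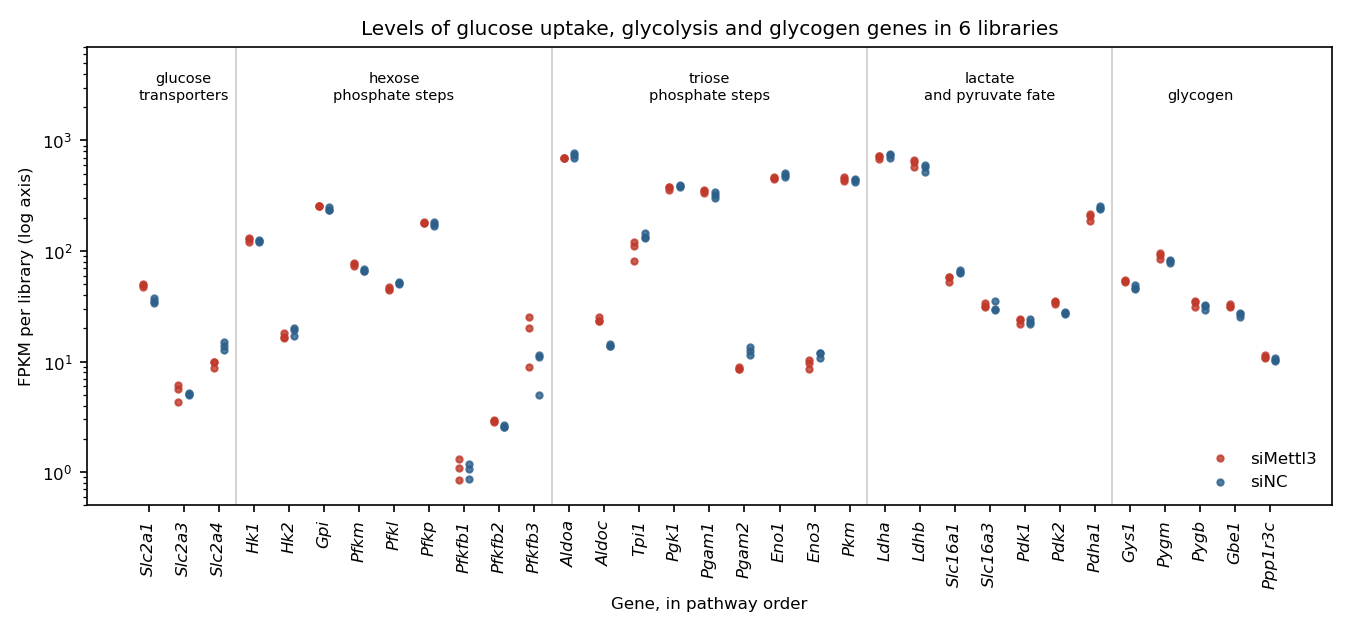
FPKM of each of the 33 genes in each library on a log axis, in pathway order, siMettl3 left of siNC. Levels ran from a mean of 1.07 FPKM for Pfkfb1 to 717 FPKM for Ldha, and 0 of the 3 genes at 500 FPKM or more passed the threshold.

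The triose phosphate steps, which yield the ATP of glycolysis, held 6 of the 12 most abundant genes, and of their 9 genes 1 rose and 1 fell. Among the 12 genes averaging 100 FPKM or more in the whole set, Pdha1 was called and the others were not. Aldoa, the aldolase of muscle and of most other cells, was at 699, 696 and 697 FPKM in siMettl3 and 736, 778 and 688 FPKM in siNC. The ranges overlapped, and the 95% interval of the log2 fold change was -0.24 to 0.09. Aldoc, the aldolase best known from brain, showed the largest change past the threshold. It had 25.1, 23.3 and 23.5 FPKM in siMettl3 and 14.3, 13.9 and 13.9 FPKM in siNC, or 171% of the siNC mean (ENSRNOG00000011452, plus strand of chromosome 10, 65586504 to 65590093). The groups lay far apart relative to their spread, with a log2 fold change of 0.73 (SE 0.0531, limma adjusted p = 0.00230; edgeR 0.70, adjusted p = 0.00258), and the call held with any 1 library left out (adjusted p of 0.00712 to 0.0204).

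Pgam2, the muscle phosphoglycerate mutase, fell. It had 8.59, 9.03 and 8.49 FPKM in siMettl3 and 11.5, 12.4 and 13.6 FPKM in siNC, without overlap (ENSRNOG00000013532, minus strand of chromosome 14, 86044969 to 86047162). In log2 terms it changed by -0.47 (SE 0.0735, limma adjusted p = 0.0160). The call was lost without siMettl3 replicate 1 (adjusted p = 0.0686), siMettl3 replicate 3 (0.0504) or siNC replicate 2 (0.0505). Its ubiquitous counterpart Pgam1 had 357, 336 and 351 FPKM in siMettl3 and 322, 339.8 and 299 FPKM in siNC, overlapping (limma adjusted p = 0.256). The muscle enolase Eno3 had 10.4, 8.57 and 9.72 FPKM in siMettl3 and 12.0, 11.9 and 10.7 FPKM in siNC, lower in every siMettl3 library but not past the threshold (limma adjusted p = 0.0996). Eno1, the enolase of most cells, had 465, 447 and 459.8 FPKM in siMettl3 and 487, 508 and 467 FPKM in siNC, lower in every siMettl3 library (0.335).

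The remaining enzymes of this segment did not pass. Tpi1, triose phosphate isomerase, had 119.7, 80.9 and 111.9 FPKM in siMettl3 and 134, 131 and 145 FPKM in siNC. All siMettl3 values were lower, and replicate 2 stood well below the other siMettl3 libraries (limma adjusted p = 0.110). Pgk1, the first kinase to make ATP in the pathway, had a 95% interval of -0.18 to 0.09 for its log2 fold change, and Pkm, pyruvate kinase, one of -0.11 to 0.18. The row described as glyceraldehyde-3-phosphate dehydrogenase on chromosome 4 (LOC108351137, ENSRNOG00000018630) had 1216, 1077 and 1113 FPKM in siMettl3 and 1250, 1391 and 1075 FPKM in siNC, overlapping, with limma adjusted p = 0.497. A further row of the same description and symbol on chromosome 5 had 415 to 520 FPKM in siMettl3 and 289.6 to 508 FPKM in siNC. Counting reads of such near-identical copies could split them, so both levels are uncertain, and the same caution applies to other glycolytic genes that have processed copies in the genome.

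At the fate of pyruvate, a subunit of pyruvate dehydrogenase fell and a kinase that acts on it rose. Pdha1, the catalytic subunit of the complex encoded on the X chromosome (ENSRNOG00000025383, plus strand, 37329779 to 37343410), fell. It had 214, 187 and 208 FPKM in siMettl3 and 258, 244 and 240.2 FPKM in siNC, with no overlap and a log2 fold change of -0.28 (SE 0.0678, limma adjusted p = 0.0440; edgeR -0.36, adjusted p = 0.0218). The limma call was lost whichever library was left out (adjusted p of 0.0672 to 0.146) and after quantile normalization (0.0561). Pdk2, which phosphorylates and so inactivates this subunit, rose, at 34.5, 35.4 and 33.0 FPKM in siMettl3 and 27.8, 26.9 and 28.3 FPKM in siNC (ENSRNOG00000004172, minus strand of chromosome 10, 82839153 to 82852660). Each siMettl3 library was above each siNC library, with a log2 fold change of 0.30 (SE 0.0507, limma adjusted p = 0.0200). The call held without siMettl3 replicate 3 or siNC replicate 3 and was lost in the other fits (0.0540 without siMettl3 replicate 2, 0.0646 without siNC replicate 2, 0.0806 without siMettl3 replicate 1 and 0.0840 without siNC replicate 1). Pdk1, a kinase induced by hypoxia, was at 23.4 ± 1.24 FPKM in siMettl3 and 23.0 ± 1.32 FPKM in siNC and did not pass.

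Lactate dehydrogenase was expressed in both of its main forms. Ldha, the muscle subunit, had 722, 673 and 721 FPKM in siMettl3 and 737, 761 and 689 FPKM in siNC. Ldhb, the heart subunit, had 644, 574 and 660.2 FPKM in siMettl3 and 576, 594 and 518 FPKM in siNC. Ranges overlapped for both genes, with limma adjusted p of 0.673 for Ldha and 0.258 for Ldhb. The lactate and pyruvate carrier Slc16a1 was lower in every siMettl3 library, at 58.5, 58.0 and 52.4 FPKM against 63.7, 64.1 and 66.8 FPKM in siNC. The fall passed by edgeR (adjusted p = 0.0328) and not by limma on the deposited values (0.0698). After median-ratio scaling it passed by limma (adjusted p = 0.0388). The lactate exporter Slc16a3 was at 32.4 ± 1.39 FPKM in siMettl3 and 31.6 ± 3.25 FPKM in siNC (SD, n = 3 each).

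All 5 glycogen genes had a log2 fold change above 0, of 0.085 to 0.26, where the median of all tested genes was itself 0.067. By edgeR the changes of the 5 were 0.018 to 0.19. Of the 5, 1 passed by limma and 0 by edgeR. Gbe1, the branching enzyme of glycogen synthesis, had 31.2, 32.8 and 31.6 FPKM in siMettl3 and 26.7, 25.2 and 27.6 FPKM in siNC (ENSRNOG00000051232, plus strand of chromosome 11, 7210209 to 7485211). The groups did not overlap, with a log2 fold change of 0.26 (SE 0.0539, limma adjusted p = 0.0322). Without siNC replicate 3 the call held (0.0453), and without any other library it was lost (0.0793 to 0.107). It was also lost after median-ratio scaling (0.0732) and quantile normalization (0.0681). Glycogen synthase Gys1 was at 53.8, 55.0 and 52.2 FPKM in siMettl3 and 48.8, 45.7 and 46.7 FPKM in siNC, without overlap. It was just outside the threshold by limma (adjusted p = 0.0580) and further from it by edgeR (adjusted p = 0.184). Muscle glycogen phosphorylase Pygm was at 92.3, 95.6 and 84.4 FPKM in siMettl3 and 82.5, 78.3 and 81.4 FPKM in siNC (limma adjusted p = 0.121). Pygb, the brain phosphorylase, was at 31.5, 35.5 and 34.2 FPKM in siMettl3 and 31.5, 29.1 and 32.7 FPKM in siNC, overlapping, and Ppp1r3c, which targets protein phosphatase to glycogen, averaged 11.1 ± 0.254 FPKM in siMettl3 and 10.4 ± 0.372 FPKM in siNC.

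Setting muscle or heart isoforms against their paired forms removed any difference in scale between libraries, since each ratio was taken within a library. Of 9 pairs, 7 had ratios that did not overlap between the groups, 3 higher and 4 lower in siMettl3. That is 77.8%, against 33.4% of all pairs of tested genes. The pairs were drawn from members chosen with earlier results of these data known. The pairs with Slc2a4, Aldoc and Pgam2 hold genes already called, and Pfkm counts against both Pfkl and Pfkp. The share is therefore a description and no independent support for a shift of isoforms. The exact 2-sided permutation test of 3 against 3 libraries cannot go below p = 0.1, which those 7 reached, or 0.129 adjusted over the 9 pairs. By limma 2 of the 8 muscle or heart genes fell (Slc2a4 and Pgam2), 0 rose and 3 had a log2 fold change above 0. Of the 9 genes they were paired with 2 rose (Slc2a1 and Aldoc), 0 fell and 6 were above 0. Of all tested genes 6.53% rose and 4.4% fell. By edgeR Pfkl, among the 9, fell as well (adjusted p = 0.0272). These counts are too small to compare the sides. Here Aldoa, also made by most other cells, counted as a muscle gene, and Ldha, the muscle subunit, as the partner of the heart subunit Ldhb.

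The transporter pair had the largest difference of the 9. The log2 ratio of Slc2a4 to Slc2a1 was -2.35, -2.26 and -2.47 in siMettl3 and -1.45, -1.43 and -1.16 in siNC, a difference of -1.02. Slc2a4 thus held 16.3 ± 0.976% of the pair in siMettl3 and 28.3 ± 2.29% in siNC (SD, n = 3 each). Aldoa held 96.7 ± 0.127% of the aldolase pair in siMettl3 and 98.1 ± 0.112% in siNC, a difference in log2 ratio of -0.85. Pgam2 held 2.44 ± 0.153% of the mutase pair in siMettl3 and 3.78 ± 0.511% in siNC (-0.64), and Eno3 held 2.04 ± 0.152% of the enolase pair in siMettl3 and 2.31 ± 0.0914% in siNC (-0.18). In these mutase and enolase pairs the muscle form was a small part of the transcripts in both groups.

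The ratios of phosphofructokinase and lactate dehydrogenase were higher in siMettl3, with a larger share of the muscle form Pfkm and of the heart form Ldhb. Pfkm held 62.2, 62.5 and 62.6% of its sum with Pfkl in siMettl3 and 56.4, 56.2 and 56.4% in siNC. The log2 ratio was higher by 0.37, with SDs of 0.0139 in siMettl3 and 0.00865 in siNC, the smallest SDs of the 9 pairs. Against Pfkp, Pfkm was higher by 0.15. Ldhb held 47.0 ± 0.895% of the lactate dehydrogenase pair in siMettl3 and 43.5 ± 0.515% in siNC, higher by 0.20 on the log2 scale, although neither gene passed alone as deposited (Ldhb passed after quantile normalization, at 0.31 with a limma adjusted p of 0.00582). The hexokinase pair (11.9 ± 0.355% Hk2 in siMettl3 and 13.2 ± 1.20% in siNC) and the glycogen phosphorylase pair (72.9 ± 1.73% Pygm in siMettl3 and 72.2 ± 0.774% in siNC) overlapped, with exact permutation p of 0.3 and 0.6.

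**Figure D4:**
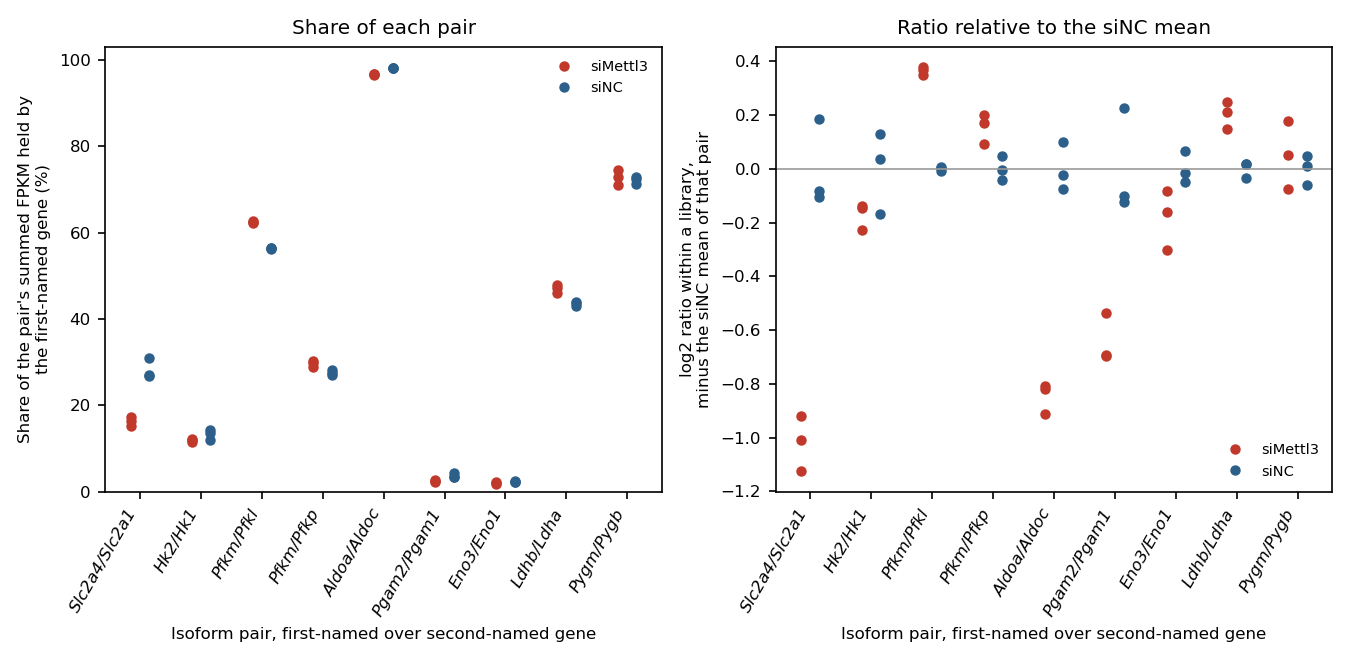
Left, the share of each pair's summed FPKM held by the first-named gene in each library; right, the within-library log2 ratio minus the siNC mean of that pair. The 3 siMettl3 libraries lie below the siNC libraries for Slc2a4/Slc2a1, Aldoa/Aldoc, Pgam2/Pgam1 and Eno3/Eno1, above them for Pfkm/Pfkl, Pfkm/Pfkp and Ldhb/Ldha, and overlap for the other pairs.

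Neighbouring parts of glucose metabolism were read from 9 further lists with 99 tested genes, of which 6 rose and 5 fell (11.1%, against 10.9% of all tested genes). Among 14 genes of pyruvate entry and the pyruvate dehydrogenase complex, 1 fell and 0 rose. This was Dld, the dihydrolipoamide dehydrogenase subunit shared with other complexes, at 53.6 ± 2.55 FPKM in siMettl3 and 66.9 ± 0.972 FPKM in siNC (log2 fold change -0.31, limma adjusted p = 0.0186). The other subunits tested, Pdhb, Pdhx and Dlat, did not pass. By edgeR the mitochondrial pyruvate carrier Mpc1 fell as well, at 101 ± 6.83 FPKM in siMettl3 and 126 ± 12.2 FPKM in siNC (edgeR adjusted p = 0.0355; limma 0.0604). None of the 6 other sugar transporters, 8 other glycolysis genes, 18 other glycogen genes or 3 gluconeogenesis genes tested passed by limma or by edgeR, where an unadjusted p under 0.05 was reached by 7 of these 35 genes in limma and 5 in edgeR.

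In the pentose phosphate pathway 1 of 7 rose, Tkt, transketolase, at 112 ± 5.63 FPKM in siMettl3 and 90.7 ± 7.65 FPKM in siNC (0.30, limma adjusted p = 0.0492; edgeR 0.0978). In the hexosamine pathway 1 of 7 rose, Oga, which removes O-linked N-acetylglucosamine from proteins, at 35.7 ± 1.25 FPKM in siMettl3 and 26.2 ± 1.88 FPKM in siNC (0.43, limma adjusted p = 0.0145). In insulin and AMP-activated kinase signalling 1 of 16 rose, Akt2, the kinase that signals to glucose transport in muscle and fat, at 47.2 ± 2.38 FPKM in siMettl3 and 38.8 ± 1.14 FPKM in siNC (0.28, limma adjusted p = 0.0293; edgeR 0.0629). With single libraries left out, Tkt was lost in every fit, Akt2 in 5 of 6, Dld in 4 and Oga in 2. By edgeR, Rpe of the pentose phosphate pathway fell (adjusted p = 0.0314; limma 0.0503).

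The hypoxia-inducible factors, their regulators and their targets outside glycolysis, read as 1 list, did not move one way. Of 20 tested 3 rose and 4 fell, a larger share than the 10.9% of all tested genes (6.53% higher and 4.4% lower). The median log2 fold change of the 20 was 0.017. Hmox1, heme oxygenase, rose to 52.4 ± 3.31 FPKM in siMettl3, against 31.3 ± 1.45 FPKM in siNC (0.72, limma adjusted p = 0.00417), and Bhlhe40, a transcriptional repressor (0.38), and Vhl, which marks the factors for degradation (0.30), rose too. The collagen prolyl hydroxylase P4ha1 (-0.44), the oxygen-sensing hydroxylases Egln3 (-0.35) and Egln1 (-0.32), and Adm, the vasodilator peptide adrenomedullin (-0.36), fell. Hif1a itself was at 26.0 ± 1.99 FPKM in siMettl3 and 26.6 ± 2.38 FPKM in siNC (limma adjusted p = 0.835). Of these calls Hmox1 held whichever library was left out, P4ha1 and Egln3 in 4 of 6 such fits, Vhl in 2, Bhlhe40 and Egln1 in 1 and Adm in 0.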

How the data were processed

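RNA-sequencing of 6 libraries was analysed from a table of 32623 genes in which the authors deposited a read count and an FPKM for each library. FPKM were used as deposited, and where the count was 0 the table gave 0.0001 FPKM. Bowtie 0.12.2 is listed in the submitters' processing notes, as is mm8, a mouse build, neither with a stated role; the quantifier, annotation and build behind the table's coordinates are not given in the sources used here. Groups came from the sample labels. The members and lists were chosen with earlier results of these data known.

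The 13105 genes averaging 1 FPKM or more were fitted with limma 3.58.1 (R 4.3.3) on log2(FPKM + 1) with an intensity trend and tested 2-sided with Benjamini-Hochberg adjustment over all of them. Fold changes are on this scale, which understates the change of low genes. The deposited counts were also tested with edgeR 4.0.16 (quasi-likelihood) and DESeq2 1.42.0; whether they are raw is not stated, so these are alternatives. Other alternatives were the pseudocount, filter, scaling, replicate block and single libraries left out. Isoform ratios were compared by exact permutation. Scripts were tested on simulated counts in which 200 genes were changed. There limma recovered 2% of the genes changed 1.25-fold, 42% of those changed 1.5-fold and 94% of those changed 2-fold. A gene that did not pass may therefore still differ by a small fold. All members found were to be given, with values in every library for those past the threshold, in a separated pair or at 500 FPKM or more, and up to 4 called genes of each other list. Total counts of 71202469 to 76668751 per library set the depth.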

Additional observations from a re-analysis of the deposited data

How the results depend on the processing

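Aldoc and Slc2a1 passed the limma threshold with any 1 library left out and by edgeR and DESeq2, whereas Pdk2 and Gbe1 were lost by edgeR and Pdha1 in every fit with a library left out. Calls among the 33 genes numbered 2 to 6 with a library left out, 11 by DESeq2 and 0 with the replicate number as a block. Over all genes the calls numbered 206 to 861 with a library left out, 903 with no filter on low values, 2394 by DESeq2 and 6 with the replicate block; over the other pathway lists they numbered 1 to 10, 21 by DESeq2 and 0 with the block. With the replicate block Aldoc had the smallest limma adjusted p of the 7 called genes (0.0617). Same-numbered libraries did not deviate together (correlations of 0.0346, -0.255 and -0.119), so the numbers were not taken as pairs. The isoform pairs with separated ratios numbered 7 with a pseudocount of 0.1; leaving out a library or blocking cannot undo a separation, so those fits say nothing of its stability. DESeq2 added falls of Eno3, Pfkl, Slc16a1 and Tpi1. Limma after median-ratio scaling added falls of Pfkl (adjusted p = 0.0309) and Slc16a1 (0.0388) and lost Gbe1 (0.0732). Of all tested genes 856 rose and 576 fell by limma, 444 rose and 864 fell by edgeR, and 358 rose and 781 fell after median-ratio scaling, and the median log2 fold change of all tested genes moved to 0.0025 by edgeR. With no filter Pdha1 was lost (0.0708). Quantile normalization lost Pdha1 (0.0561) and Gbe1 (0.0681) and added rises of Ldhb (0.00582) and Pgam1 (0.0368), and with a mean of at least 5 FPKM Pfkm passed (0.0471). The cause of these differences was not tested.

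Of 526 fold changes of members under 16 alternatives, 427 kept direction and side of the threshold, 37 lost and 15 gained a call, and 47 changed sign, all of uncalled genes with a log2 fold change of at most 0.091 in size. For Slc2a3, Hk1, Pfkp, Pfkfb1, Pkm, Slc16a3 and Pdk1, in this order, the log2 fold change was -0.013, -0.030, -0.034, -0.0038, -0.037, -0.028 and -0.045 after median-ratio scaling. By edgeR it was -0.0073, -0.032, -0.039, -0.0065, -0.040, -0.037 and -0.051. By edgeR with median-ratio size factors it was -0.0037, -0.029, -0.035, -0.0030, -0.037, -0.034 and -0.047, and by DESeq2 -0.0036, -0.029, -0.035, -0.0036, -0.037, -0.034 and -0.047. By edgeR with no filter it was -0.0083, -0.033, -0.039, -0.0070, -0.041, -0.038 and -0.052. Quantile normalization turned Slc2a3 (-0.021), Pdk1 (-0.029), Aldoa (0.086), Pgk1 (0.085), Eno1 (0.053) and Ldha (0.12). With a library left out it ranged from -0.041 to 0.17 for Slc2a3, -0.045 to 0.12 for Pfkfb1, -0.0082 to 0.12 for Slc16a3, and -0.0098 to 0.067 for Pdk1; the sign turned without siMettl3 replicate 2 (Slc2a3 and Pdk1, -0.0052), siMettl3 replicate 3 or siNC replicate 3 (Pfkfb1, -0.028 without siNC replicate 3) or siNC replicate 1 (Slc16a3 and Pdk1).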

Other observations

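Several other isoforms of these pathways were below the level at which genes were tested. The transporters Slc2a2, Slc2a5, Slc2a9 and Slc5a1, the hexokinase Hk3, the liver forms Pklr and Gys2, the germ-cell forms Ldhc and Gapdhs, and the gluconeogenic Pck1, Fbp1 and Fbp2 all averaged below 1 FPKM, and Pgk2 had a count of 0 in all 6 libraries. Eno2, the neuronal enolase, was at 15.6, 14.5 and 15.5 FPKM in siMettl3 and 15.6, 6.43 and 16.7 FPKM in siNC, where replicate 2 stood apart (limma adjusted p = 0.513).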
